A study of Mus musculus with 15 samples.

Results

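MH-S cells, a macrophage line derived from the alveolar macrophages of the mouse lung by SV40 transformation, were kept for 24 h in medium alone (M0) or in medium with 20 ng/mL IL-4 (M2), and the RNA of 3 wells of each was sequenced. The comparison of these 6 libraries, of 15 in the series, asks which genes the cytokine raised and which it lowered. The other 9 libraries hold cells given LPS at 1 µg/mL with IFN-γ at 20 ng/mL (M1) or 1 of 2 kinds of microrod, and they entered the model for its estimate of the spread. The labels name no genetic difference between the groups, all of which are this SV40-transformed line. All wells held 1 passage of the line, so the spread between libraries is that of wells and their library preparation, without a spread between passages. In the microrod groups it also holds the difference between separately prepared particle batches. Of 78317 gene identifiers, 16654 passed the filter on low counts and were tested, of which 15925 had a count in each of the 6 libraries. Levels are CPM, counts divided by the library size as edgeR scaled it, and changes are log2 fold changes (log2FC) of M2 over M0 with their standard error (SE).

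IL-4 is the cytokine of type 2 immunity, made mainly by T helper cells and granulocytes during allergy and worm infection. It binds a receptor of the IL-4 receptor alpha chain with the common gamma chain, or with the IL-13 receptor alpha 1 chain, and the attached Janus kinases phosphorylate the transcription factor STAT6. In macrophages the response is known as alternative activation, with arginase, lectin receptors and eosinophil-attracting chemokines as its usual signs, whereas LPS and IFN-γ drive the classical, inflammatory state.

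STAT6 binds palindromes of TTC and GAA with 4 bases between them (the longer form), and other STAT proteins those with 3 bases between them (the shorter form). Hence the RefSeq promoter windows of mouse build GRCm38.p6 (250 bases before to 50 after each gene's start) were searched for both, with any base allowed at the positions between. Each form reads the same on both strands, and matches of both forms may share bases. The windows of 6 named genes raised by IL-4 hold a match. Those of Batf3 and H2-DMb2, with 1 match of the shorter form each, are not shown. The other 4 are printed below, with the match in capitals. They are chr9:107296409-107296708, chr6:122921598-122921897, chr13:42301226-42301525 and chr19:29410669-29410968, all read on the plus strand.
Cish: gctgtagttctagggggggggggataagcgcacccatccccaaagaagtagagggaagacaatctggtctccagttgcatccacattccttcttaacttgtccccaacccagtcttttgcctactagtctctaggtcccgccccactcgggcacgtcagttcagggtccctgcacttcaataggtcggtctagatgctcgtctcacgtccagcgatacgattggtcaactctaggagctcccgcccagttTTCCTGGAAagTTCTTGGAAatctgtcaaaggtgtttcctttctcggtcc
Clec4a1: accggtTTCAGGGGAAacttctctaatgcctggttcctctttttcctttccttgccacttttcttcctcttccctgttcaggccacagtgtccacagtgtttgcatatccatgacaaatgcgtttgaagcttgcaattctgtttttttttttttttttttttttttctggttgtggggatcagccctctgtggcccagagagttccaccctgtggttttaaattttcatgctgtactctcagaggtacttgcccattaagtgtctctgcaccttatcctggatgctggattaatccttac
Edn1: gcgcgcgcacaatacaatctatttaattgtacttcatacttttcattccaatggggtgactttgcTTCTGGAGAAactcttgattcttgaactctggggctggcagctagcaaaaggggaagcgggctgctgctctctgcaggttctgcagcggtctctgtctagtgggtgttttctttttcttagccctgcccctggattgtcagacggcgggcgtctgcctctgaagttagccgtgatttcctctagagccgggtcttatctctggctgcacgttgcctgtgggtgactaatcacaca
Pdcd1lg2: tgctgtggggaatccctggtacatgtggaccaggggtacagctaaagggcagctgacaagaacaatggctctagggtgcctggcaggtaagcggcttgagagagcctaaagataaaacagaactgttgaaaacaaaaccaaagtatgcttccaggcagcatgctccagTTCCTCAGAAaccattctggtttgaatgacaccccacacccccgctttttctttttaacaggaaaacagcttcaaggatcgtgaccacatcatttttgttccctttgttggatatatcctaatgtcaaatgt
The window of Cish holds 2 matches of the shorter form, which begin at the gene's start and 11 bases after it, and those of Clec4a1, Edn1 and Pdcd1lg2 hold 1 of the longer form, 244, 185 and 82 bases before the start. Among protein-coding DEGs higher in M2, 18 of 216 with a window (8.33%) held the longer form, against 571 of 8582 protein-coding genes tested (6.65%) and 10 of 212 of those lower in M2 (4.72%). For the shorter form the shares were 6.48%, 8.17% and 8.96% in the same order. These counts describe letters in short windows and say nothing of binding. Of the 24 named higher genes with a window, 6 held either form, 3 of them the longer and 3 the shorter. Among 23 named lower genes with a window, 2 held the shorter form and 0 the longer. Either form was held by 14.3% of all higher DEGs, 13.2% of the lower and 14.0% of all genes tested.

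Before any comparison, M0 replicate 3 and M2 replicate 2 stood apart from the other 4 libraries. They had the smallest totals of all 15, with 8459643 and 8594947 counts, against 14442586 to 68750050 in the other 4. Pseudogenes took 7.45% and 8.25% of their counts and 11.7% to 16.2% in the other 4. In the 9 libraries outside this comparison the share was 8.04% to 14.9%, so a low share was not particular to these 2 libraries. With all libraries thinned to the smallest total, 3204 and 3147 pseudogenes had a count in them. The other 4 had 3929 to 4334, and the 9 outside this comparison 3456 to 4152. In a principal component analysis of the 6 libraries over 500 genes with the largest variance, 350 of which were pseudogenes, the first component (70.8% of the variance) parted these libraries from the others, with scores of 49.8 and 48.1 against -40.7 to -15.1. The second (16.3%) parted M0 from M2. Over the 500 most variable protein-coding genes, the first component (48.1%) parted M0 (-27.1 to -14.6) from M2 (8.9 to 25.8), and M2 replicate 2 had the lowest score on the second (-33.2). On the genes that differed between M0 and M2, M2 replicate 2 lay at a median of 0.08 log2 units above the other M2 libraries for genes raised by IL-4 and 0.29 above them for genes lowered, that is, nearer to M0 for the latter.

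**Figure D1:**
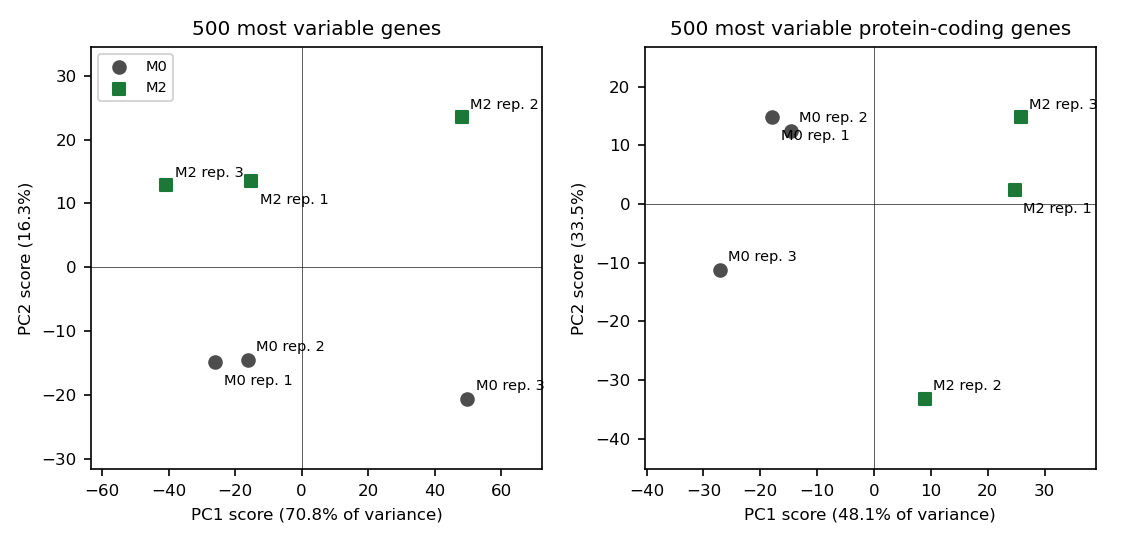
Scores of the 3 M0 (circles) and 3 M2 libraries (squares) on the first 2 principal components, for 500 genes with the largest variance of log2 CPM (left) and 500 such protein-coding genes (right), with the share of variance on each axis. On the left the horizontal axis parts M0 replicate 3 and M2 replicate 2 from the other 4, and on the right it parts M0 from M2.

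The cells had the markers of macrophages. The 12 pan-macrophage genes summed to 4555 to 6257 CPM in M0 and 5696 to 7299 CPM in M2, and 2 of the 11 tested were higher in M2 (Adgre1, which encodes F4/80, and the Fc receptor gene Fcgr3) and 1 lower (Cd33). Of 14 genes that mark alveolar macrophages in the lung, 6 could be tested, Ear1 and Fabp1 had no count in any of the 6 libraries, and the sum of the list was 508 to 650 CPM in M0 and 362 to 549 CPM in M2. The label alveolar macrophage thus names the origin of the line rather than a full set of that cell's markers. In this list Atp6v0d2 was higher in M2 and Cd9 lower, and both calls, like those of Fcgr3 and Cd33, were lost when any of several single libraries was left out (adjusted p up to 0.297 without M0 replicate 1 for Atp6v0d2, 0.166 without M2 replicate 3 for Cd9, 0.209 without M0 replicate 1 for Fcgr3 and 0.175 without M2 replicate 3 for Cd33). The call of Adgre1 was lost without M0 replicate 1 (0.0583). Markers of other cells were near 0. In every library the 7 fibroblast genes summed to at most 0.348 CPM, the 7 epithelial genes to 0.116, the 6 endothelial genes to 2.46, the 9 T and B cell genes to 1.71 and the 8 neutrophil and mast cell genes to 2.53, with Epcam, Sftpc and Ly6g at 0 throughout.

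IL-4 changed 688 genes, 4.13% of those tested, at an adjusted p below 0.05 and a |log2FC| above 0.5, the thresholds for a differentially expressed gene (DEG). Of these 333 were higher in M2 (2.00%) and 355 lower (2.13%). These shares of all genes are the ones to set beside the count of any list. The median log2FC was 1.48 among the higher and -1.31 among the lower DEGs, and 0.07 over all genes tested. Changes of over 8-fold were found in 43 higher and 13 lower DEGs. The libraries of the 2 groups did not overlap in 675 of the 688, and in 15.2% of all genes (7.03% with M2 above and 8.20% with M2 below). Protein-coding genes made up 289 of the higher and 272 of the lower DEGs (5.16% of those tested), whereas 9 of 2902 pseudogenes were DEGs (0.31%). In bulk RNA, a change in the number of cells that use a gene and a change in RNA per cell cannot be told apart.

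**Figure D2:**
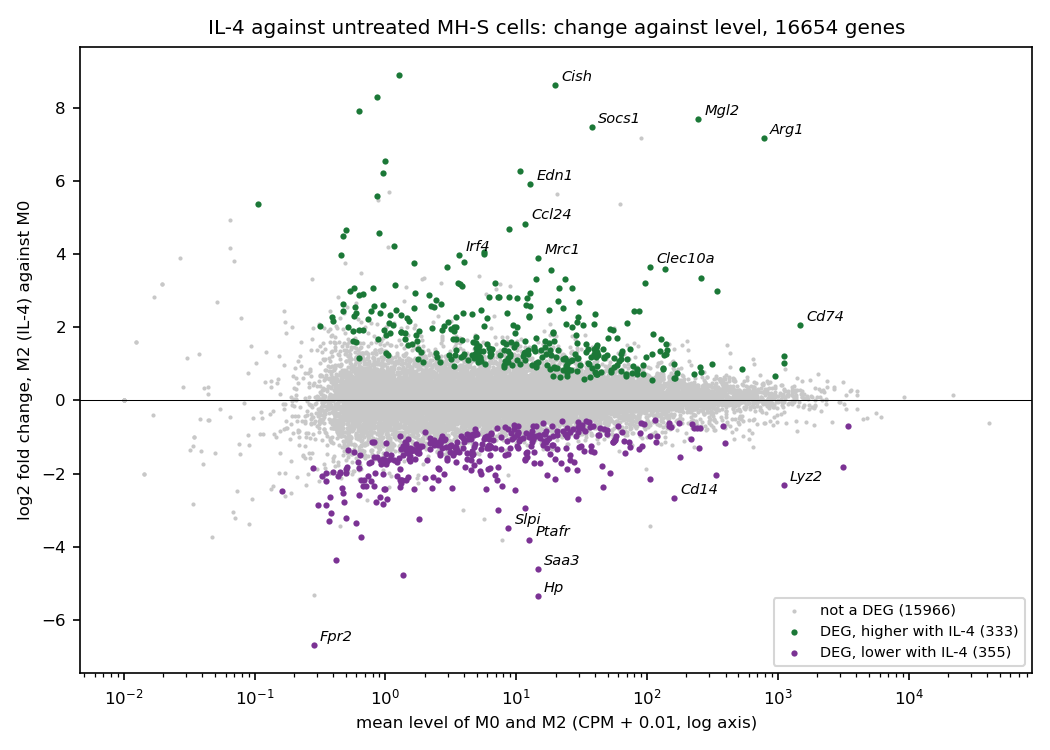
Log2 fold change of M2 over M0 (vertical axis) against the mean CPM of both groups (horizontal log axis, with 0.01 added) for 16654 genes, with the 333 DEGs higher and 355 DEGs lower in M2 coloured. Arg1 and Mgl2 lie at the upper right, Hp and Saa3 at the lower middle, and the bulk of the genes lies around 0.

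The number of DEGs moved with the libraries used. All 688 kept their direction in every other fit that tested them, but this could hardly have come out otherwise. Those fits reuse the same libraries, and in 675 of the 688 the libraries of the 2 groups do not overlap. Without M0 replicate 3 and M2 replicate 2 together, 728 genes were DEGs (352 higher and 376 lower) and 511 of the 688 were among them. Leaving out single libraries gave 316 DEGs without M0 replicate 1, 433 without M0 replicate 3, 409 without M2 replicate 1, 365 without M2 replicate 3 and 1360 without M2 replicate 2. A model of the 6 libraries alone, which cannot borrow the spread of the other groups, called 97 (70 higher and 27 lower), and a fit with no filter on low counts called 1138 (762 higher and 376 lower). The balance of higher and lower DEGs was not firm, since the higher outnumbered the lower in 9 of the 18 other settings, most of all in these last fits and without M2 replicate 3 (253 and 112). Of the 66 named DEGs, 65 could be tested with the 6 libraries alone and 36 were called there.

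**Figure D3:**
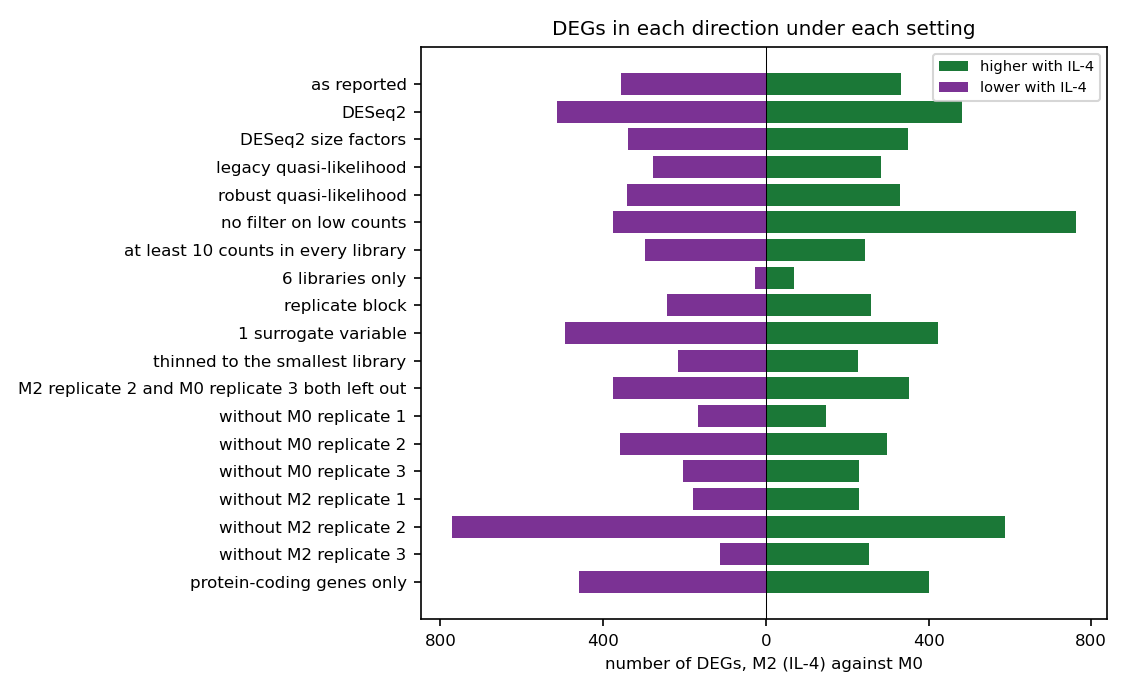
Number of DEGs higher (right of 0) and lower (left of 0) in M2 than in M0 under each of 19 settings, the top bar being the one reported. The bars are longest to the left without M2 replicate 2 (771 lower) and shortest when the model held the 6 libraries alone.

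Few genes of the receptor and its signalling passed the test. Of 16 tested genes of the IL-4 receptor and STAT6 pathway, 0 were higher in M2 and 1 lower by edgeR, with 4 at an unadjusted p below 0.05 and a median log2FC of 0.02. Over the 18 other settings at most 1 was called in either direction. Il4ra, the ligand-binding chain, was at 3.79, 5.27 and 4.17 CPM in the M0 libraries and at 4.91, 1.32 and 4.75 CPM in the M2 libraries. Its log2FC was -0.14 (SE 0.41, adjusted p = 0.909), and M2 replicate 2 was the low library. Il2rg, the common gamma chain, ranged from 235 to 334 CPM in M0 and from 183 to 477 CPM in M2 (log2FC 0.09, SE 0.28), with M2 replicate 2 the highest. Stat6 was at 25.1 to 36.2 CPM in M0 and at 31.2 to 59.2 CPM in M2 (log2FC 0.59, SE 0.40, adjusted p = 0.502). Jak1 and Jak3 also missed the threshold, with adjusted p = 0.510 and 0.316. The exception was Il13ra1, the chain that pairs with the IL-4 receptor outside the lymphoid lineage. It was at 17.2, 13.9 and 21.3 CPM in M0 and at 5.94, 7.502 and 6.30 CPM in M2, which is 2.67-fold lower (log2FC -1.42, SE 0.20, adjusted p = 0.00107).

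Of the SOCS family, which dampens cytokine receptors in a feedback loop, Cish and Socs1 rose, and Socs2 and Socs3 had log2FC of 0.73 and 0.75 without passing the test (adjusted p = 0.680 and 0.389). Cish, an inhibitor of cytokine receptors whose promoter is printed above, was at 0.132, 0.0650 and 0 CPM in the M0 libraries and at 48.7, 37.5 and 31.9 CPM in the M2 libraries. These were 5, 1 and 0 counts before IL-4, so its log2FC of 8.61 (SE 0.51, adjusted p = 3.23e-08) rests on a very low base. Socs1, the inhibitor of Janus kinases, went from 0.369, 0.520 and 0.463 CPM to 75.3, 12.5 and 139 CPM (log2FC 7.47, SE 0.95, adjusted p = 4.07e-04). No library of either group overlapped for these genes, yet the M2 values of Socs1 spread over more than 10-fold, with M2 replicate 2 the lowest.

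Of 23 tested feedback regulators and transcription factors of the pathway, 5 were higher and 1 lower in M2, with a median log2FC of 0.67. Irf4, the factor linked to alternative activation in mice, was at 0.501, 0.325 and 0.348 CPM in M0 and at 8.46, 6.84 and 5.41 CPM in M2 (log2FC 3.98, SE 0.32, adjusted p = 3.12e-06). Batf3, a partner of IRF proteins at DNA, rose 3.48-fold from 11.9, 12.9 and 13.4 CPM to 38.9, 56.2 and 38.2 CPM. The fifth, named here as the rest of the list, was Gata3 (4.21-fold higher), the master regulator of T helper 2 cells, and Nr4a1 was the gene that fell (2.52-fold). Gata3 lost its call without M0 replicate 1, M0 replicate 3, M2 replicate 1 or M2 replicate 3 (adjusted p up to 0.0780) and Nr4a1 without any 1 of the 6 libraries (up to 0.127). A further 3 factors often placed in the M2 programme missed the threshold. Egr2 was at 2.11 to 3.25 CPM in M0 and 3.55 to 9.35 CPM in M2 (log2FC 1.40, adjusted p = 0.116), and it passed without M2 replicate 2 (0.0389). Klf4 had a log2FC of 0.67 (adjusted p = 0.0725, and 0.0286 from DESeq2) and Myc of 1.06 (0.119). Irs2 and Pparg had too few counts to be tested, Pparg with 23, 4 and 5 counts in M0 and 3, 5 and 30 in M2.

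The effectors of alternative activation formed the list with the most genes raised. Of 37 genes, 21 could be tested, 12 were higher in M2 and 0 lower, with a median log2FC of 2.29 against 0.07 for all genes. By edgeR 17 of the 21 were at an unadjusted p below 0.05, and over the other settings the higher genes numbered 7 to 13. Arg1, which splits arginine into ornithine and urea, was at 9.80, 8.46 and 14.7 CPM in M0 and at 1724, 1545 and 1382 CPM in M2, a 143-fold difference (log2FC 7.16, SE 0.29, adjusted p = 6.93e-09). Mgl2, a galactose-binding lectin of macrophages and dendritic cells, rose 207-fold from 2.37, 3.12 and 1.27 CPM to 584, 451 and 433 CPM. Its close relative Clec10a, or Mgl1, was at 14.1, 16.7 and 16.1 CPM in M0 and at 214, 189 and 185 CPM in M2, 12.6-fold higher with the smallest SE of these genes (0.15). The eosinophil-attracting chemokine gene Ccl24 rose 28.5-fold, from 0.659, 0.846 and 1.04 CPM to 20.3, 27.2 and 20.5 CPM. Mrc1, the mannose receptor CD206, was at 2.19, 1.17 and 2.20 CPM in M0 and at 30.0, 28.0 and 24.7 CPM in M2. For all of these every M2 library lay above every M0 library, M0 replicate 3 and M2 replicate 2 included. Within M0, replicate 3 was the lowest for Mgl2 and the highest for Arg1.

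Pdcd1lg2, the PD-1 ligand PD-L2, was near the floor of 3 counts in M0 and at 1.02, 0.790 and 0.759 CPM in M2, which makes it at least 4.14-fold higher (adjusted p = 0.00457, and 0.0901 without M0 replicate 1). The remaining members that rose, given for completeness, were the growth factor gene Igf1 (10.1-fold, from 44.4 to 49.6 CPM in M0 up to 407 to 600 CPM in M2), the elastase gene Mmp12 (9.15-fold), the arginine transporter gene Slc7a2 (8.34-fold), the PD-L1 gene Cd274 (4.88-fold), the VEGF receptor gene Flt1 (3.67-fold) and the inhibitory receptor gene Cd200r1 (2.53-fold). Cd200r1 lost its call without M0 replicate 1 (adjusted p = 0.0620), and Flt1 without M0 replicate 2, M0 replicate 3, M2 replicate 1 or M2 replicate 3 (up to 0.0972). The other 4 kept theirs with any 1 library left out.

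Several textbook signs of the M2 state were missing or scarce in this line. Retnla, which encodes RELM-alpha, had 0, 0 and 0 counts in M0 and 2, 2 and 11 in M2. Chil3, which encodes the chitinase-like protein Ym1, had 0, 0 and 0 counts in M0 and 7, 0 and 2 in M2. Neither passed the filter, so no test was made, and a rise to a level this low would be hard to see at these depths. Ccl17 was at 0, 0.132 and 0.200 CPM in M2 with no count in M0, and Ccl22 at 0.341, 0.263 and 0.615 CPM against 0.132, 0.325 and 0.232 CPM. Both chemokine genes of type 2 inflammation missed the threshold (adjusted p = 0.116 and 0.159). In the M1 libraries they reached 5.83 to 6.15 and 30.0 to 47.0 CPM, higher than in M2 in the direct test (log2FC of M2 over M1 -5.21 and -6.32). Cdh1 had at most 1 count in any of the 6 libraries. Tgm2, the transglutaminase often used as an M2 marker, was at 13.6, 21.2 and 19.6 CPM in M0 and at 9.69, 9.61 and 9.59 CPM in M2 (log2FC -0.90, adjusted p = 0.0821, and 0.0253 from DESeq2), so the libraries did not overlap but on the lower side. Fn1 had a log2FC of 0.14 (SE 0.38).

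**Figure D4:**
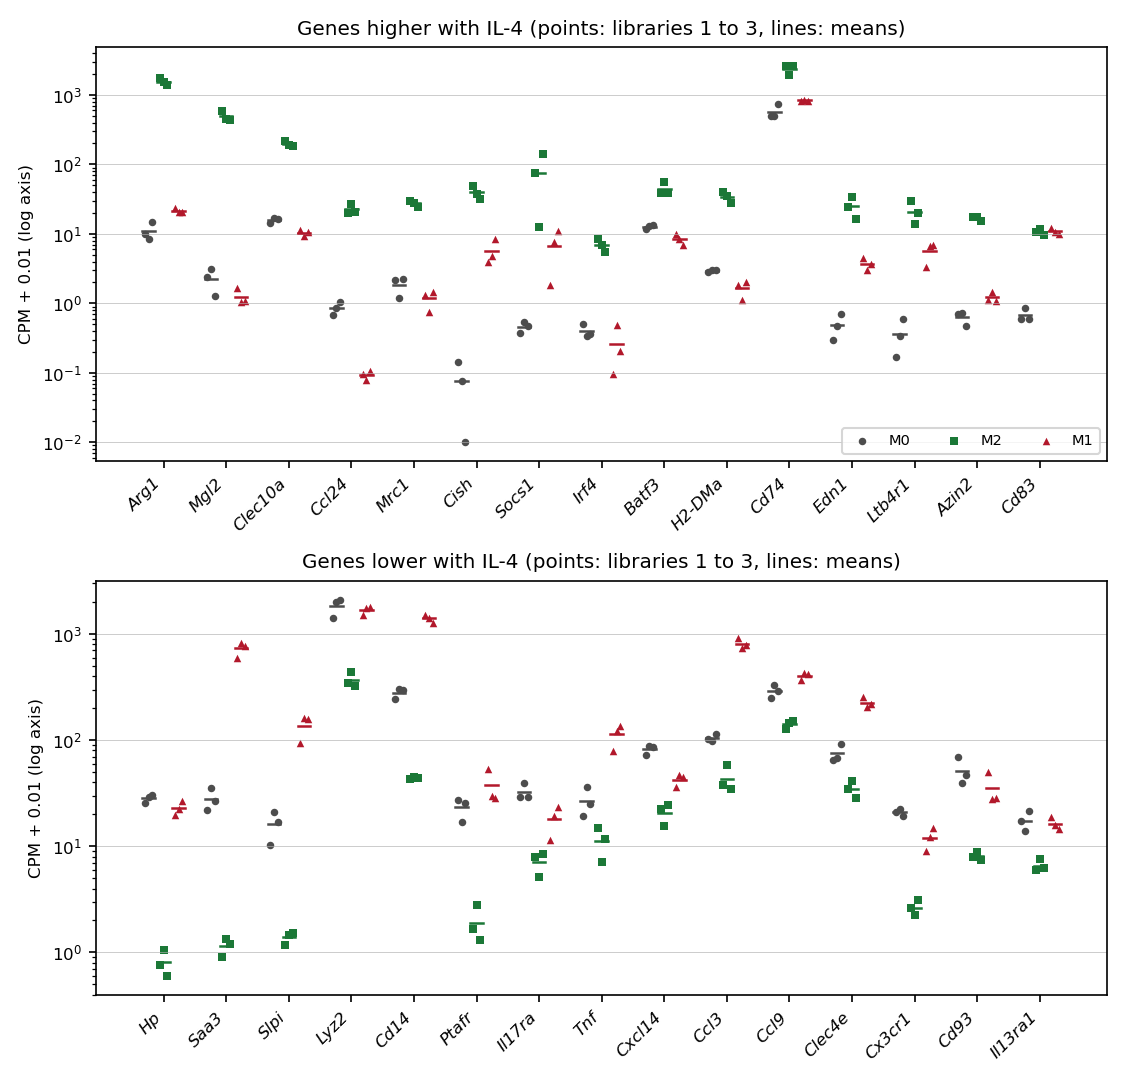
CPM (log axis, with 0.01 added) of 15 genes higher with IL-4 (upper) and 15 lower (lower panel) in each of the 3 M0 (circles), M2 (squares) and M1 libraries (triangles), with lines at the group means. M2 lies above M0 for every gene of the upper panel and below it for every gene of the lower one, and M1 lies far above both for Saa3, Slpi, Cd14, Ccl3, Tnf and Clec4e.

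A further 5 genes were among the 12 with the largest rise by the naming rule. Ltb4r1, the high-affinity leukotriene B4 receptor, went from 0.158, 0.325 and 0.579 CPM to 29.3, 13.7 and 19.6 CPM (log2FC 6.25, SE 0.52). Edn1, the precursor of the vasoconstrictor endothelin-1, rose 60.1-fold from 0.290, 0.455 and 0.695 CPM to 24.1, 34.4 and 16.5 CPM. Azin2, the antizyme inhibitor that protects ornithine decarboxylase, rose 25.5-fold to 17.7, 17.4 and 15.5 CPM. The dendritic cell maturation marker Cd83 rose 15.9-fold, from 0.580, 0.846 and 0.579 CPM to 10.6, 11.8 and 9.50 CPM. Clec4b1 is given with the lectins below. All of these were called in every other setting that tested them.

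C-type lectin receptors outside the effector list moved both ways. Of 13 tested, 3 were higher and 5 lower in M2, against 2.00% and 2.13% of all genes, with a median log2FC of 0.16. Most of them lie side by side on chromosome 6, and the direction changed along that stretch. In order, Clec4a1, Clec4a3 and Clec4b1 were higher (log2FC 2.30, 2.36 and 4.06), Clec4a2 was not called (0.65), and Clec4n, Clec4d and Clec4e were lower (-1.42, -1.30 and -1.12). Clec4b1, the receptor DCAR, was at 0.606, 0.716 and 0.463 CPM in M0 and at 8.19, 16.3 and 7.66 CPM in M2. Clec4a3 went from 12.4, 11.97 and 15.1 CPM to 59.1, 93.1 and 50.4 CPM, and Clec4a1 from 4.21, 3.12 and 5.68 CPM to 25.3, 17.1 and 19.9 CPM. Clec4e, or Mincle, which senses the mycobacterial cord factor, was at 65.7, 68.2 and 92.7 CPM in M0 and at 35.01, 40.9 and 28.4 CPM in M2. Clec4d, its partner MCL, was at 340, 353 and 372 CPM in M0 and at 114.1, 204 and 116 CPM in M2. For both, M2 replicate 2 had the value nearest to M0. The remaining members that were lower, Clec12a and Clec5a (log2FC -1.13 and -0.97), lost their calls without M0 replicate 3, M2 replicate 1 or M2 replicate 3, and Clec5a also without M0 replicate 1 (adjusted p up to 0.0685 and 0.154). The lower genes of the list then numbered 3 without each of those 3 libraries, and 0 with the 6 libraries alone, where the 3 higher genes were called. The sequences of the Clec4a genes are close to one another, so the split of reads between them is uncertain.

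Some genes of the MHC class II pathway rose. Of 13 tested, 5 were higher and 1 lower in M2, against 2.00% and 2.13% of all genes, with a median log2FC of 0.65. H2-DMa, a chain of the peptide exchange factor H2-DM, was at 2.79, 2.99 and 3.01 CPM in M0 and at 39.8, 35.4 and 27.6 CPM in M2 (log2FC 3.55, SE 0.25, adjusted p = 1.66e-06). Its partner chains H2-DMb2 and H2-DMb1 rose 2.61-fold and 1.94-fold. Cd74, the invariant chain that guides class II molecules, was at 495, 496 and 727 CPM in M0 and at 2620, 1910 and 2578 CPM in M2, 4.14-fold higher. No M2 library of these 4 genes fell within the range of M0. H2-Aa, a gene of the class II molecules themselves, stayed near 0, however, with 0, 0 and 0 counts in M0 and 2, 1 and 4 in M2. Ciita, the factor that switches class II genes on, had 0, 0 and 0 against 8, 1 and 19. The fifth gene that rose was March1, a ubiquitin ligase for class II molecules, and the cathepsin gene Ctsl fell 1.70-fold. Either call was lost in 5 of the 6 fits without 1 library, and held without M2 replicate 2 for March1 and without M0 replicate 1 for Ctsl (adjusted p otherwise up to 0.248 and 0.136).

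**Figure D5:**
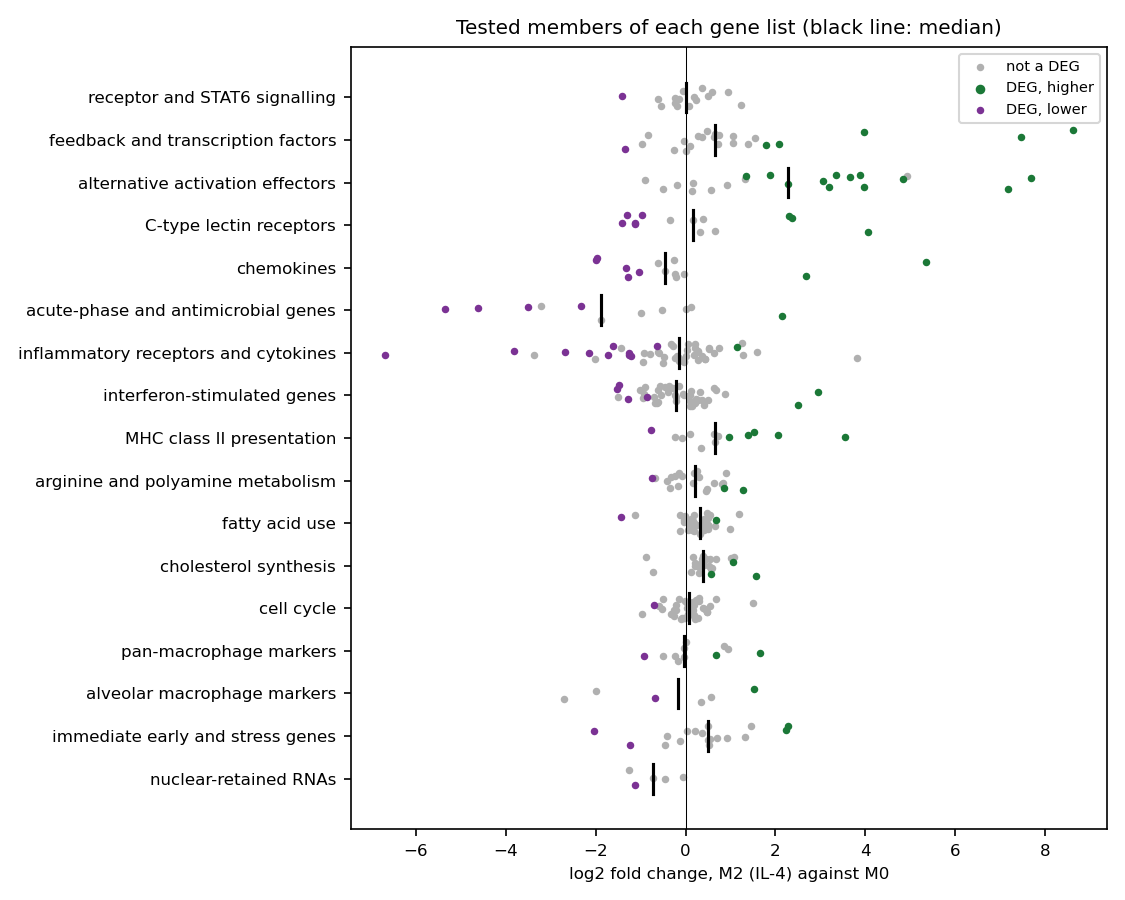
Log2 fold change of M2 over M0 of every tested member of the gene lists with at least 5 tested members, with DEGs coloured and a black line at each list's median. The median lies furthest to the right for the effectors of alternative activation (2.29) and furthest to the left for the acute-phase and antimicrobial genes (-1.88), while single genes of other lists reach further, to 8.61 (Cish) and -6.68 (Fpr2).

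On the side of genes that fell, secreted acute-phase and antimicrobial genes had the lowest median of the lists. Of 33, 11 could be tested, and the median log2FC was -1.88. Of these 4 were lower and 1 higher in M2, against 2.13% and 2.00% of all genes. Hp, the haemoglobin scavenger haptoglobin, was at 25.7, 29.3 and 30.1 CPM in M0 and at 0.751, 1.05 and 0.587 CPM in M2, 40.5-fold lower (log2FC -5.34, SE 0.24, adjusted p = 1.24e-08). Saa3, an acute-phase apolipoprotein made by macrophages, fell 24.6-fold from 21.8, 35.8 and 26.9 CPM to 0.887, 1.32 and 1.202 CPM. Slpi, an inhibitor of neutrophil elastase, fell 11.3-fold from 10.2, 21.1 and 16.9 CPM to 1.16, 1.45 and 1.52 CPM. Lyz2, the lysozyme of macrophages, was at 1416, 2021 and 2105 CPM in M0 and at 345, 438 and 322 CPM in M2 (log2FC -2.33, SE 0.18). All 6 libraries kept to their group for these genes, and M2 replicate 2 had the highest M2 value for Hp, Saa3 and Lyz2. The member that rose was the complement gene C3, 4.44-fold.

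Some receptors for microbial and inflammatory signals fell. Of 49 tested inflammatory receptors and cytokines, 10 were lower and 1 higher in M2, against 2.13% and 2.00% of all genes. The other 38 were not called, and the median log2FC was -0.15. Cd14, which hands LPS to its receptor, was at 244, 304 and 294 CPM in M0 and at 42.9, 45.01 and 43.7 CPM in M2, 6.41-fold lower (log2FC -2.68, SE 0.14, adjusted p = 8.29e-08). Tlr4, the receptor that Cd14 serves, went the other way without passing (3.50, 2.28 and 3.82 CPM against 5.05, 5.53 and 5.48 CPM, adjusted p = 0.0905, and 0.0366 from DESeq2). Ptafr, the receptor of platelet-activating factor, fell 14.0-fold from 27.5, 16.9 and 25.6 CPM to 1.64, 2.76 and 1.29 CPM. Il17ra, the IL-17 receptor chain, was at 29.1, 39.4 and 29.1 CPM in M0 and at 7.92, 5.13 and 8.44 CPM in M2. Fpr2, a formyl peptide receptor, had 0.632, 0.195 and 0.811 CPM in M0 and no count in M2, at least 2.55-fold lower (adjusted p = 0.00127, and 0.0677 with counts thinned to 1 depth). Tlr2 (3.29-fold), C5ar1 (2.40-fold), Nfkbiz (3.07-fold), Cd80 (2.39-fold) and Nfkbia (1.55-fold) complete the genes that fell with Tnf, and the costimulatory gene Cd40 rose 2.21-fold. Cd80 lost its call without M0 replicate 1, M0 replicate 3, M2 replicate 1 or M2 replicate 3 (adjusted p up to 0.176), and Nfkbia kept it only without M0 replicate 1 (otherwise up to 0.136). Tnf was at 19.3, 35.8 and 25.02 CPM in M0 and at 14.9, 7.11 and 11.8 CPM in M2 (log2FC -1.22, SE 0.30, adjusted p = 0.0358). Its call was lost without M0 replicate 2 (0.113), M0 replicate 3 (0.0720), M2 replicate 2 (0.0569) or M2 replicate 3 (0.112). Il1b was near 1 CPM in both groups (log2FC -0.33, SE 0.59).

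Chemokines were mixed. Of 13 tested, 5 were lower and 2 higher in M2, against 2.13% and 2.00% of all genes, with a median log2FC of -0.45. Cxcl14, a chemokine with antimicrobial activity, was at 72.8, 88.9 and 87.0 CPM in M0 and at 22.4, 15.4 and 24.3 CPM in M2 (log2FC -1.98, SE 0.19). Ccl3, which attracts monocytes and lymphocytes, fell 2.44-fold from 102, 97.3 and 114.4 CPM to 37.6, 58.0 and 34.3 CPM, and Ccl9 fell 2.06-fold. Ccl7, another monocyte attractant, rose from 7.30, 6.50 and 10.5 CPM to 30.4, 94.8 and 30.4 CPM, with M2 replicate 2 far above the other M2 libraries. Cxcl10 and Cxcl2 were lower but at most at 1.18 CPM in M2, and Ccl12, the second gene that rose, had no count in M0 and at most 0.263 CPM in M2. At least 4 of the 6 fits that leave out 1 library lost each of these 3 calls (adjusted p up to 0.231, 0.363 and 0.273, all without M2 replicate 3).

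Some interferon-stimulated genes passed the test. Of 45 tested, 2 were higher and 4 lower in M2, against 2.00% and 2.13% of all genes. The median log2FC was -0.21. The lower genes were Ifi207, Oasl2, Ifi203 and Ddx58, and over the 18 other settings they numbered 0 to 8. Usp18, which removes ISG15 from proteins and restrains interferon signalling, rose 7.71-fold from 2.32, 3.51 and 3.24 CPM to 26.5, 22.1 and 19.5 CPM. Irf7, the factor that drives type I interferon production, was at 5.82, 7.68 and 7.30 CPM in M0 and at 55.8, 20.8 and 39.7 CPM in M2, with M2 replicate 2 the lowest. In the other direction, Ifi207 fell from 11.6, 11.2 and 13.4 CPM to 4.23, 5.00 and 3.94 CPM, and Oasl2 fell 2.90-fold to 7, 3 and 28 counts in M2 (adjusted p = 0.00862, and 0.113 without M2 replicate 3).

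Surface receptors and other genes outside the lists were also among those with the largest fall. Cx3cr1, the fractalkine receptor, was at 21.2, 22.5 and 19.1 CPM in M0 and at 2.59, 2.24 and 3.08 CPM in M2, 7.62-fold lower. Cd93, a lectin-like receptor of the myeloid surface, fell 6.50-fold from 69.0, 39.1 and 47.1 CPM to 7.92, 8.82 and 7.47 CPM. Cxcr3, the receptor of the interferon-induced CXC chemokines, fell 5.34-fold from 7.30, 11.6 and 11.4 CPM to 1.57, 1.45 and 2.18 CPM. Pcp4l1 fell 7.99-fold and Nav2 5.18-fold, and the rule that named both required that their libraries did not overlap. Gm48969, a gene without a known product, fell to 0.478, 2.90 and 0.615 CPM, and its call was lost without M2 replicate 1 (adjusted p = 0.0575) or M2 replicate 3 (0.119).

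Some members of the metabolic lists passed the test, where 2.00% of all genes were higher and 2.13% lower. By edgeR, 9 of 22 arginine and polyamine genes and 13 of 39 of fatty acid use were at an unadjusted p below 0.05. So were 14 of 24 cholesterol synthesis genes, 5 of 41 cell cycle genes and 2861 of all 16654. The list of arginine and polyamine metabolism leaves out Arg1, Slc7a2 and Azin2, which are described above and rose 143-fold, 8.34-fold and 25.5-fold. Of its 22 other tested genes, 2 were higher and 1 lower (median log2FC 0.21). These were the creatine genes Gatm (1.81-fold) and Ckb (2.41-fold) and the polyamine gene Amd1 (1.68-fold lower), each lost in at least 3 fits without 1 library, with adjusted p up to 0.0788 without M2 replicate 1, 0.144 without M0 replicate 1 and 0.153 without M0 replicate 1. Odc1, the first enzyme of polyamine synthesis, was at 75.8 to 104 CPM in M0 and 46.1 to 132 CPM in M2 (log2FC -0.16, SE 0.31), with M2 replicate 2 the highest. Of 39 genes of fatty acid use, Fabp5 was higher (1.60-fold) and the cholesterol exporter Abca1 lower (2.71-fold), and Cd36 had a log2FC of 0.07 (SE 0.24). Fabp5 was lost without M0 replicate 1 (0.0830), M0 replicate 3 (0.0758) or M2 replicate 1 (0.0541), and Abca1 without M0 replicate 1 (0.0583) or M2 replicate 3 (0.0925). Of 24 cholesterol synthesis genes, 3 of the mevalonate branch were higher (Mvk, Mvd and Pmvk, 2.08-fold, 2.95-fold and 1.47-fold), each lost in at least 4 fits without 1 library, with adjusted p up to 0.201, 0.173 and 0.212 without M0 replicate 1. Of 41 cell cycle genes 1 was called, a share no higher than the 4.13% of all genes. It was the cyclin gene Ccnd2, 1.64-fold lower (adjusted p = 0.0154, and 0.0548 without M0 replicate 2).

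Signs of stress and of RNA quality were checked in the same way. Of 18 tested immediate early and stress genes, 2 were higher (Ier3, 4.83-fold, and Ddit4, 4.73-fold) and 2 lower (Fos and Egr1), with a median log2FC of 0.50. Fos fell from 28.4, 30.3 and 24.7 CPM to 7.98, 3.82 and 7.66 CPM and Egr1 fell 2.34-fold (adjusted p = 0.0120, and 0.0746 without M0 replicate 3 and M2 replicate 2 together). Ier3 and Ddit4 were lowest in M2 replicate 2 among the M2 libraries, and their calls were lost in at least 4 fits without 1 library (adjusted p up to 0.0856 without M0 replicate 1 and 0.197 without M2 replicate 3). The 5 tested RNAs kept in the nucleus had log2FC from -1.26 to -0.06, with a median of -0.73. By edgeR 4 of the 5 were at an unadjusted p below 0.05, against 2861 of all 16654 genes. Of them only Kcnq1ot1 was called lower (2.18-fold), and its call was lost without any 1 of the 6 libraries (adjusted p up to 0.166 without M2 replicate 3). The list summed to 396 to 520 CPM in M0 and 356 to 444 CPM in M2. The mitochondrial share was 1.48% to 2.18% in M0 and 1.03% to 2.13% in M2. The part of these differences in the results above was not tested.

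The M1 libraries allow the same genes to be set beside their levels under LPS with IFN-γ. The named genes were chosen on the M2 libraries that also enter the test of M2 against M1, so the counts are a description. Of the 35 named genes higher in M2 than M0, 23 were also higher in M2 than M1, 2 were lower (Ccl7 and Fabp5) and 10 did not differ at the threshold. Of the 31 named genes lower in M2 than M0, 24 were lower than in M1, 1 was higher (Ccnd2) and 6 did not differ. Over all genes, 5.47% were higher and 10.6% lower in M2 than M1 (16.1% in all).

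Among genes raised by IL-4, Mgl2 was at 1.63, 1.03 and 1.07 CPM in M1 and Ccl24 at 0.0860, 0.0684 and 0.0972 CPM, so that M2 exceeded M1 by a log2FC of 8.62 (SE 0.37) and 8.01 (SE 0.39). Arg1 was at 23.5, 20.6 and 20.8 CPM in M1, with M2 over M1 at a log2FC of 6.16. Of the SOCS-family genes, Cish was at 3.87, 4.79 and 8.55 CPM in M1 (M2 over M1 log2FC 2.79, SE 0.32) and Socs1 at 1.81, 7.66 and 10.9 CPM (3.50, SE 0.70), both above M0. Socs3 went the other way, at 48.2, 75.3 and 76.5 CPM in M1 and 1.32 to 4.71 CPM in M2 (M2 over M1 log2FC -4.24, SE 0.39), and so did Socs2, at 2.24 to 2.87 and 0.258 to 0.682 CPM (-2.84, SE 0.51). Cd83 reached 11.95, 10.5 and 10.01 CPM in M1, a log2FC of M2 over M1 of -0.04 (SE 0.19, adjusted p = 0.903). Irf7, Usp18 and Clec4a1 likewise had differences of 0.08 (SE 0.37), 0.34 (SE 0.23) and 0.08 (SE 0.24) between the 2 stimuli.

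Among genes lowered by IL-4, a group went up under LPS with IFN-γ. Saa3 was at 600, 827 and 779 CPM in M1, Slpi at 93.7, 160 and 157 CPM and Cd14 at 1509, 1414 and 1284 CPM, with a log2FC of M2 over M1 of -9.33, -6.60 and -5.00, a gap wider than that between M2 and M0. Ccl3, Tnf, Clec4e and Fos were also above M0 in M1. Hp, however, was at 19.8, 22.2 and 26.8 CPM in M1, close to the 25.7 to 30.1 CPM of M0, and Lyz2 at 1522, 1745 and 1789 CPM. Cxcr3 was low under both stimuli, with an M2 over M1 difference of -0.07 (SE 0.29), which did not pass the threshold.

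Finally, DEGs were looked at by their place in the genome, using the order of 10609 tested protein-coding genes on GRCm38.p6 for neighbourhood only. Of 280 placed genes higher in M2, 63 (22.5%) had a next tested gene that was also higher, against 539 of all 10609 (5.08%). For the lower DEGs these numbers were 42 of 268 (15.7%) and 519 (4.89%). Of 10588 adjacent pairs, 38 were both higher, 24 both lower and 12 opposite. The pairs include families of near copies, for which reads may have been shared, and the counting is not stated to use the strand, so that reads running past the end of a gene cannot be assigned to one or the other. The runs named next were chosen after their values were seen. On chromosome 11, Asgr2 (at most 1.18 CPM in M2, and lost without M0 replicate 1 at an adjusted p of 0.0887) and Clec10a flank Mgl2. Next to Cish lie Hemk1 (5.20-fold higher) and 6430571L13Rik, which was at 2.32, 0.790 and 1.89 CPM in M2 and at most at 0.0650 CPM in M0. Plgrkt, Cd274 and Pdcd1lg2 rose side by side (log2FC 1.17, 2.29 and 3.96), as did Pla2g12a, Casp6 and Mcub (1.44, 2.98 and 0.99), the middle one, a caspase gene, from 73.6, 76.2 and 83.9 CPM to 567, 770 and 506 CPM. Among the lower genes, the complement receptor genes C5ar2 and C5ar1 (-1.91 and -1.26) and the paired receptor genes Pilra, Pilrb1 and Pilrb2 (-1.32, -1.31 and -1.31) were neighbours. Of these, Pilrb2 was lost without M2 replicate 3 (adjusted p = 0.0668).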

How the data were processed

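RNA from 15 wells of MH-S cells (5 groups of 3) was reverse transcribed from poly-A with the Smart-seq2 protocol, which uses no molecular identifiers, and sequenced as 75 bp paired-end reads. The authors aligned and quantified the reads with STAR and Salmon in the nf-core/rnaseq pipeline on the Ensembl annotation (GRCm39 per the labels) and deposited a count table of the whole series. Its whole-number counts, 1 row to each Ensembl gene, may be rounded estimates. It was neither normalized nor filtered, and 0 of its columns were left unused. Gene symbols matched 51487 of 78317 identifiers. Names, classes, neighbours and promoter windows came from GRCm38 references, since no GRCm39 genome was used here, and coordinates are given for the windows only.

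In R 4.3.3, edgeR 4.0.16 filtered genes by group (filterByExpr, minimum count 10), scaled libraries by TMM and fitted the quasi-likelihood model to all 15 libraries (10 residual degrees of freedom), with p-values of the contrasts adjusted by Benjamini-Hochberg over all 16654 genes. A DEG had an adjusted p below 0.05 and a |log2FC| above 0.5. DESeq2 1.42.0, which the authors used, and sva 3.50.0 served as alternatives. The SE is the log2FC divided by the root of the F statistic. Totals ran from 8459643 to 68750050 counts in M0 and M2, and 3 counts, the floor for a fold, correspond to 0.0429 to 0.395 CPM in a library. Floors cover counting error only. The SE and the p-values rest on the spread between libraries of 1 passage, estimated from all 15, which includes particle batches in the microrod groups. A permutation test of 3 against 3 libraries cannot go below 0.1 and was not used. The code was tested on simulated counts.

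Named genes were Arg1, Clec10a and Ccl24 and 6 genes known from an earlier analysis, the 12 DEGs with the largest change in each direction among those with at least 5 CPM in a group and no overlap of libraries, up to 4 DEGs with the smallest adjusted p from each of 22 lists, and 30 genes of the IL-4 literature whatever their values. Members and lists were chosen with earlier results of these data known, so no list is independent support, and genes outside the rule, most of them the other members that complete a list's count, were chosen after their values were seen. Replicate numbers were checked for pairing. Alternatives comprised other tools, scalings and filters, fewer libraries, thinning and a replicate block. Of the named genes that are counted, 1 is not reported here.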

Additional observations from a re-analysis of the deposited data

How the results depend on the processing

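No DEG of M2 against M0 changed direction in any of the settings that tested it, which carries little weight because all settings reuse the same libraries. The number of DEGs (688, with 333 higher and 355 lower) moved by over 1.5 times in several. It was 1138 (762 higher) with no filter on low counts, 97 (70 higher and 27 lower) with the 6 M0 and M2 libraries alone, and 442 (215 lower) after thinning to the smallest total. With 1 library left out it ran from 316 to 1360 (148 to 589 higher and 112 to 771 lower), lowest without M0 replicate 1 and highest without M2 replicate 2. It was 995 with DESeq2, 687 with its size factors, 559 and 670 with the legacy and robust fits, 541 where a gene needed 10 counts in all libraries, 919 with 1 surrogate variable, 540 at a |log2FC| above 1 and 862 over protein-coding genes only, the last chosen after seeing the data. Fewer samples or genes entered some of these fits, and otherwise the cause was not tested. Of 66 named DEGs, 35 kept their call in every setting that tested them, and 36 of 65 did with the 6 libraries alone. List counts moved by over 1.5 times in 85 of 360 combinations of list and setting.

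Same-numbered M0 and M2 libraries deviated from their group means with correlations of -0.06, -0.54 and -0.70. These cannot tell whether the numbers mark a shared batch. The deviations also hold what sets M0 replicate 3 and M2 replicate 2 apart from the rest (correlation 0.62 between them). The replicate block gave 502 DEGs (259 higher and 243 lower). No library of M2 was closest to its own number in M0.

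Differences of either sign were seen for named genes that were not called. For M2 against M0, without M0 replicate 3 and M2 replicate 2 together, the log2FC was -0.29 for Fn1, -0.26 for Il2rg and 0.15 for Il4ra. With 1 library left out it ran from -0.10 to 0.58 for Fn1 (-0.06 without M0 replicate 3), from -0.42 to 0.35 for Il2rg (-0.03 without M0 replicate 2), from -0.08 to 0.17 for Cd36, from -0.37 to 0.16 for Il4ra (0.02 without M0 replicate 2), from -0.69 to 0.11 for Odc1 and from -0.59 to 0.08 for Il1b. For M2 against M1, Il2rg was at -0.37 and Cxcr3 at 0.13 without both libraries, and Il2rg at -0.03 with the replicate block. With 1 left out, the ranges were -0.04 to 0.05 for Cd83, -0.26 to 0.45 for Irf7, -0.08 to 0.29 for Clec4a1, -0.02 to 0.50 for Jak3, -0.08 to 0.43 for Stat6, -0.37 to 0.29 for Il2rg and -0.36 to 0.13 for Cxcr3 (0.02 without M2 replicate 1). The cause was not tested. Depth limits genes near 3 counts, such as Retnla, Chil3 and Ciita, for which a change is not detectable here.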

Other observations

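The genes in this paragraph were chosen after their values were seen, and none of the lists holds them. The 3 genes of the complement component C1q lie next to each other and were all DEGs higher in M2. C1qb was at 13.4, 26.8 and 24.3 CPM in M0 and at 90.5, 60.4 and 96.2 CPM in M2, and C1qc went from 1.69, 3.06 and 2.09 CPM to 7.37, 14.2 and 24.4 CPM. C1qa was at 2.24, 6.44 and 2.78 CPM in M0 and at 17.3, 5.79 and 22.4 CPM in M2, so M2 replicate 2 fell within the range of M0, and its call was lost without M0 replicate 1, M0 replicate 3, M2 replicate 1 or M2 replicate 3 (adjusted p up to 0.169). Brwd1, a bromodomain gene, rose 12.1-fold from 23.8, 18.1 and 21.0 CPM to 242, 333 and 188 CPM. Cst7, the cystatin F gene, rose 8.43-fold and Cd200r4, an activating receptor beside Cd200r1, 9.90-fold. The placental growth factor gene Pgf was at 0.474, 0.650 and 0.463 CPM in M0 and at 6.41, 9.48 and 6.53 CPM in M2, and Nfil3, a transcription factor first described as regulated by IL-3, rose 6.51-fold.

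Among genes that fell, Spp1, which encodes osteopontin, was at 4358, 4986 and 5386 CPM in M0 and at 1140, 2107 and 953 CPM in M2, 3.51-fold lower, with M2 replicate 2 nearest to M0. Cybb, the catalytic subunit of the phagocyte NADPH oxidase, fell 4.11-fold from 691, 366 and 576 CPM to 127, 163 and 109 CPM. Rab7b, a small GTPase of late endosomes, fell 4.43-fold and Slc26a9, its neighbour, was at most at 0.263 CPM in M2, its call being lost without M0 replicate 1 or M2 replicate 3 (adjusted p up to 0.185). The interferon-induced membrane protein genes Ifitm3 and Ifitm6, also neighbours, had log2FC values of -1.16 and -1.80. The PIR and LILR receptor genes Pira2 and Lilra6 had log2FC values of 1.37 and 1.66 (lost without M0 replicate 1, at adjusted p of 0.0737 and 0.0612, and without M2 replicate 1 and M2 replicate 3 respectively), and reads may be shared among the near copies of that family.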
